A study of Rattus norvegicus with 8 samples.

Results

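Of the 33294 genes listed for the rat neural lobe, 6 were singled out as nearly silent at 125 days: Asb15, Fam111a, RGD1562420, LOC120101677, LOC102555039 and Foxn4. They were chosen by their values in these same libraries, near 0 at 125 days and expressed at 35 days, so their levels are given as a description with no test. All 6 were found in the table by symbol. The neural lobe, or neurohypophysis, was dissected from Sprague Dawley males aged 125 days (4 libraries) or 35 days (4 libraries), the younger age being the control of the labels. Rats of both ages were perfused with phosphate-buffered saline under isoflurane, the labels name no treatment other than age, and the libraries were made from poly(A)-selected RNA. The series describes its purpose as finding how gene expression in this lobe changes with age. Nothing in the labels says whether a numbered sample is its own animal, and p-values here therefore reflect variation among 4 libraries per age, some of which may be technical.

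The neural lobe holds the endings of vasopressin and oxytocin axons, glia called pituicytes, and vessels. Asb15 encodes a protein with ankyrin repeats and a SOCS box, which recruits substrates to a cullin-5 ubiquitin ligase, and it is best known from skeletal muscle. Fam111a encodes a serine protease that binds the sliding clamp PCNA and acts at DNA replication forks, and inherited changes in the human gene cause a skeletal growth disorder. Foxn4 encodes a forkhead transcription factor of dividing progenitors in the developing retina and spinal cord, where it acts with Notch ligands and proneural factors. RGD1562420, LOC120101677 and LOC102555039 are provisional identifiers, and no function is given here for them.

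A reference entry was found for 3 of the 6, Asb15 on chromosome 4, Fam111a on chromosome 1 and Foxn4 on chromosome 12. The 250 bases before their annotated starts are shown because these genes share the same extreme difference between ages, and their promoters can be compared letter by letter. The sequences are from RefSeq, build GRCr8, plus strand, written 5′ to 3′. Capitals mark matches on either strand to CCAAT, the letters of a CCAAT box, or to GGGCGG, the letters of a GC box.

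Asb15, chr4:53986967-53987216: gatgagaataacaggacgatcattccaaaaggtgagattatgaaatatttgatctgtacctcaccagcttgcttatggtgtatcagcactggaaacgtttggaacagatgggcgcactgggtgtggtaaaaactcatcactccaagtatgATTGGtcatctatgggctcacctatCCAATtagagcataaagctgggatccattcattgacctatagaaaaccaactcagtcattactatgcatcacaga
Fam111a, chr1:219065389-219065638: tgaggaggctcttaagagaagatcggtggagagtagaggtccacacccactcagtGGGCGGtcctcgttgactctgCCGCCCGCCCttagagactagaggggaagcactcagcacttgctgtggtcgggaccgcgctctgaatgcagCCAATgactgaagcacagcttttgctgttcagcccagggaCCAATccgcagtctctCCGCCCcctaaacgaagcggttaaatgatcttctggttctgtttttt
Foxn4, chr12:48000007-48000256: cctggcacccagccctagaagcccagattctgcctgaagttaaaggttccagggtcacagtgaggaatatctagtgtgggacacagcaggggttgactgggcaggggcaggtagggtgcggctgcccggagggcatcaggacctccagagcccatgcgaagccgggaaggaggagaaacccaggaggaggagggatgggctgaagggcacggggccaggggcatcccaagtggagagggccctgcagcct

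The 3 stretches differed in composition. The Asb15 stretch had 41.6% G and C with 3 CG steps, the Fam111a stretch 55.6% with 12, and the Foxn4 stretch 63.6% with 5, against medians of 51.2% and 5 over the 33469 upstream stretches of this length. CCAAT was present on either strand in 34.0% of those stretches. Asb15 held it 2 times, in opposite orientations, and Fam111a 2 times in the same orientation, while Foxn4 held none. Fam111a also held 4 matches to GGGCGG, a pair of them partly overlapping, and this motif was in 30.5% of stretches. None of the 3 held TATAAA (12.9% of stretches), the cell cycle element TTTGAA (16.2%) or the E2F core GCGGGA (16.0%) on either strand. Asb15 has a second annotated start nearby, whose upstream stretch overlapped the printed one and gave the same matches. These matches are letters only and describe no binding.

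Values are depth-normalized counts, that is, reads per gene after the authors scaled each library by its own size factor. The libraries held 28429133 to 58696254 recovered reads, with 35-day replicate 4 the deepest, so that 1 read was worth 0.564 to 1.26 depth-normalized counts. In limma (log2 of the value + 1), 8.87% of the 17919 genes tested were called lower at 125 days and 8.85% higher, at a Benjamini-Hochberg adjusted p below 0.05. At an unadjusted p below 0.05 the shares were 15.6% lower and 16.0% higher. On the recovered reads edgeR called 9.22% lower and 8.47% higher, and DESeq2 12.3% lower and 11.2% higher. The 8 pituicyte markers were present in every library and summed to 49377 to 72237 depth-normalized counts at 125 days and 61566 to 108057 at 35 days. Of these 8, 2 glial genes fell in limma, Gfap (log2 change -1.62, adjusted p = 6.37e-05) and S100b (-1.39, adjusted p = 9.62e-05), 0 rose, and the median was -0.52; their part in the values below was not tested. A library that stood apart was 35-day replicate 3, at 59.7 on the second principal component (21.3% of variance) against -29.3 to -21.8 for the other 35-day libraries. Its 8 anterior lobe markers summed to 1391590, against 23566 to 226449 in the other 35-day libraries and 6424 to 49907 at 125 days. The members' shares and the counts of called neighbours and listed genes are therefore also given without it, when limma called 14.8% of all genes tested lower and 15.9% higher.

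Asb15 was at 1.02, 6.84, 6.30 and 0.978 depth-normalized counts in 125-day replicates 1, 2, 3 and 4, and at 648, 519.8, 892 and 689 in the 35-day replicates. The ages were far apart, and the lowest 35-day library was 76.0 times the highest 125-day one. The means were 3.78 ± 3.23 at 125 days and 687 ± 155 at 35 days (SD, n = 4 each), so the 125-day mean was 0.551% of the 35-day mean, and 0.612% without 35-day replicate 3. The 125-day libraries together held 14 reads of this gene and the 35-day libraries 3074. Its log2 difference, 125 minus 35 days, was -7.44, the largest fall among the 17919 genes tested on the log2(value + 1) scale. By edgeR and by DESeq2 it ranked 3, behind Ifit1 and Mcpt2, and with a pseudocount of 5 it ranked 2, behind Fam111a.

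Fam111a was at 40.6, 38.1, 30.3 and 40.1 in 125-day replicates 1, 2, 3 and 4, and at 4213, 4192, 1738 and 5208 in the 35-day replicates. At 125 days the gene was low but present in every library, with 144 reads in all, so it was not silent. The means were 37.3 ± 4.80 at 125 days and 3838 ± 1478 at 35 days (SD, n = 4 each), a share of 0.971%. The lowest 35-day value was that of replicate 3, the library with the high anterior lobe markers. Without it the 35-day mean was 4538 ± 580.4 (SD, n = 3) and the share 0.821%. The spread among 35-day libraries was much smaller than the gap between ages, since even the lowest of them was 42.8 times the highest 125-day library. The log2 difference was -6.55, ranking 3 among falls. The reference annotation has a pseudogene, Fam111a-ps1, and a second gene, Fam111al1, next to Fam111a, neither of which is a row of the deposited table, so how reads that fit more than 1 of these loci were assigned is uncertain.

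RGD1562420 was at 23.4, 10.8, 6.30 and 6.84 in 125-day replicates 1, 2, 3 and 4, and at 528, 398, 851 and 520.4 in the 35-day replicates. Within 125 days replicate 1 was the highest, and within 35 days replicate 3. The means were 11.8 ± 7.95 at 125 days and 574 ± 194 at 35 days (SD, n = 4 each), a share of 2.06%, or 2.45% without 35-day replicate 3, and the log2 difference was -5.61.

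LOC120101677 was at 19.3, 5.86, 12.6 and 21.5 in 125-day replicates 1, 2, 3 and 4, and at 479.6, 337, 684 and 203 in the 35-day replicates. This gene had the widest relative spread of the 6 among the 35-day libraries, with replicate 3 at 3.37 times replicate 4. The means were 14.8 ± 7.07 at 125 days and 426 ± 206 at 35 days (SD, n = 4 each). The 125-day share was 3.48%, and 4.36% without 35-day replicate 3, and the log2 difference was -4.76.

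LOC102555039 was at 3.05, 0.977, 1.26 and 2.93 in 125-day replicates 1, 2, 3 and 4, and at 82.8, 35.1, 44.7 and 90.9 in the 35-day replicates. Replicates 1 and 4 of 35 days were the higher ones, and replicate 3 was not at either extreme. All 125-day libraries together held 8 reads, with an exact Poisson 95% interval of 3.45 to 15.8 that covers counting error only, and those of 35 days held 304. The means were 2.05 ± 1.09 at 125 days and 63.4 ± 27.6 at 35 days (SD, n = 4 each), a share of 3.24%, or 2.95% without 35-day replicate 3, and the log2 difference was -4.36.

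Foxn4 was at 0, 1.95, 1.26 and 1.96 in 125-day replicates 1, 2, 3 and 4, and at 32.9, 37.2, 41.4 and 62.1 in the 35-day replicates. A count of 0 in replicate 1 allows up to about 3 reads, or 3.05 depth-normalized counts, as an upper bound only at 95% confidence. The 125-day libraries together held 5 reads (exact Poisson 95% interval 1.62 to 11.7) and the 35-day libraries 211. The means were 1.29 ± 0.922 at 125 days and 43.4 ± 12.9 at 35 days (SD, n = 4 each). That is a share of 2.98%, and 2.93% without 35-day replicate 3, with a log2 difference of -4.35.

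**Figure D1:**
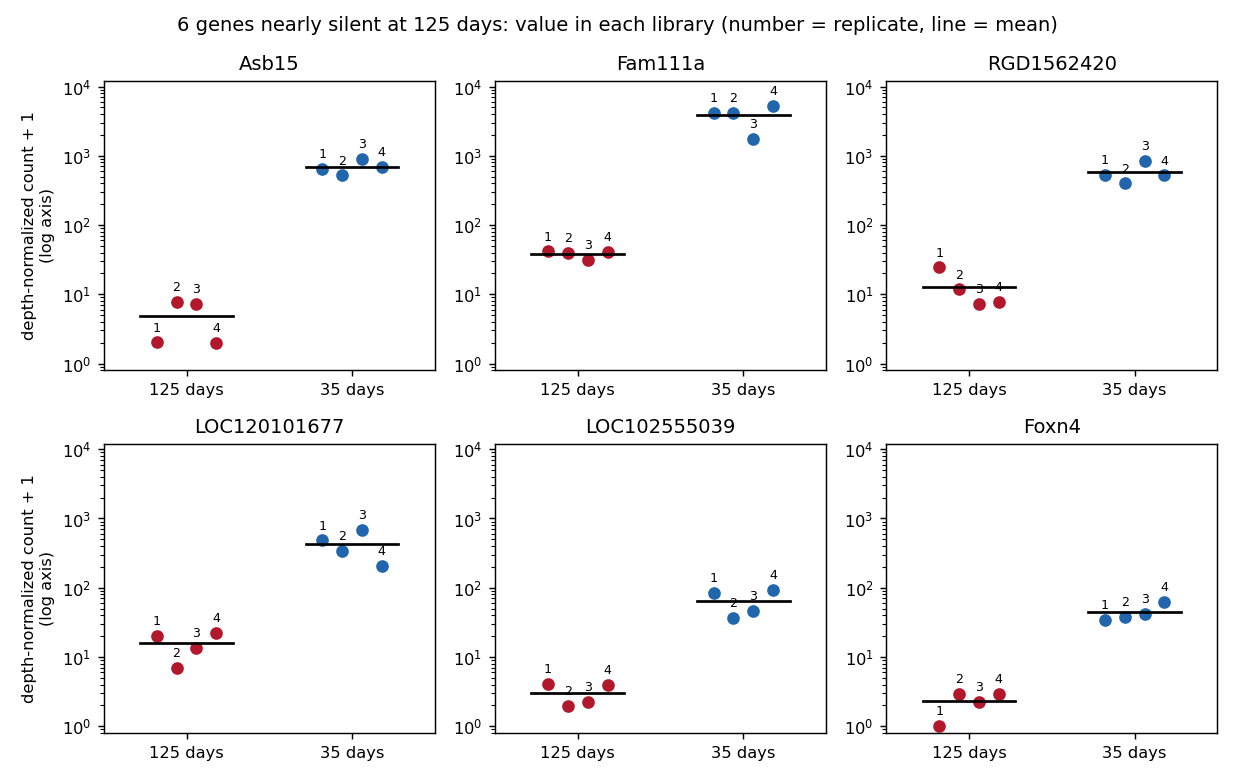
Depth-normalized count + 1 (vertical log axis) of the 6 genes in each library, 125 days left in red and 35 days right in blue; numbers are replicates and lines the means of 4 libraries. In every panel the 125-day points lie below the 35-day points, and 35-day replicate 3 is the lowest of its age for Fam111a and the highest for Asb15, RGD1562420 and LOC120101677.

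In all 6 genes every 125-day library was below every 35-day library, a separation that follows from how they were chosen, and 11.5% of the genes tested were separated in this way. The order of the 35-day libraries was not shared. Replicate 3 was the highest for Asb15, RGD1562420 and LOC120101677, the lowest for Fam111a, and in the middle for LOC102555039 and Foxn4, which were highest in replicate 4. Each of the 6 passed the filter on low values, 10 or more depth-normalized counts in 4 or more libraries. None reached 10 in all 4 libraries of 125 days except Fam111a, so the other 5 passed by virtue of their 35-day libraries and had to differ. Their log2 differences ranked 1, 3, 5, 7, 11 and 12 among all falls on the log2(value + 1) scale. The ranks depended on the scale, running from 3 to 12 by edgeR, from 3 to 15 by DESeq2 and from 1 to 38 with a pseudocount of 5. With the pseudocount of 1, 16 genes had a log2 change of -4 or below, against 8 of 4 or above. The members with the smallest differences, LOC102555039 (-4.36) and Foxn4 (-4.35), were ranked next to Alox15 (-4.47) above them and Kel (-4.05) below, genes that were not members.

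**Figure D2:**
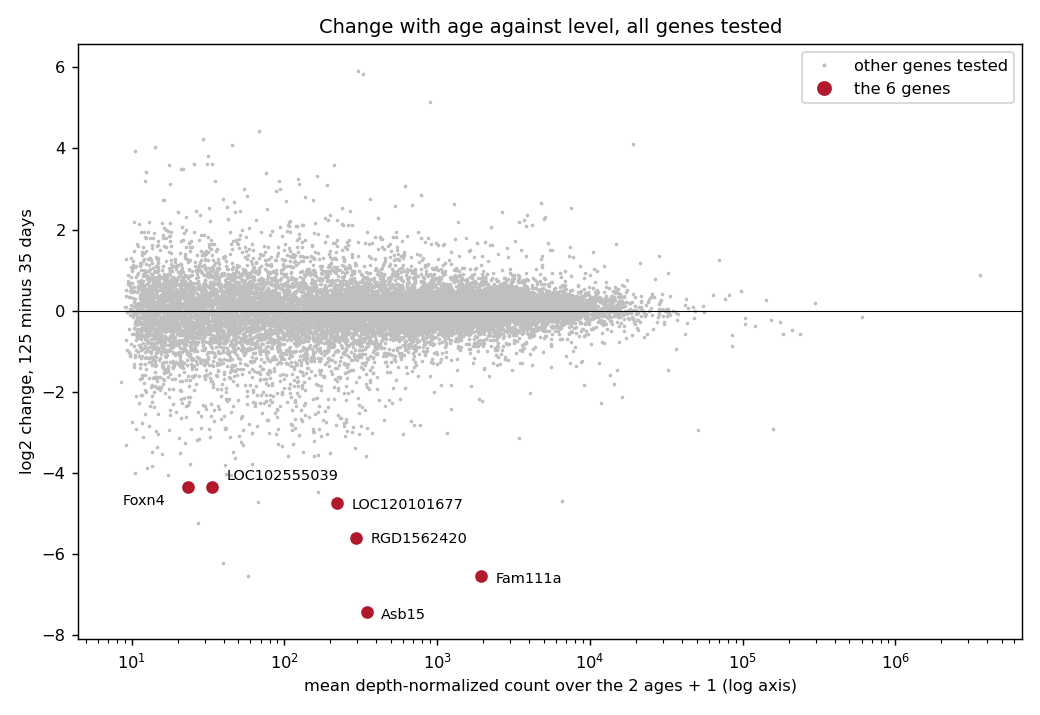
Log2 change, 125 minus 35 days (vertical), against the mean depth-normalized count over both ages + 1 (horizontal log axis) for the 17919 genes tested, with the 6 genes in red. The 6 genes lie between -7.44 and -4.35, and Asb15 is the lowest point of the plot on this scale, log2(value + 1).

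The word silent was checked with a stricter pattern over all 33294 genes: every 125-day library at or under 5 depth-normalized counts and every 35-day library at or over 10. It was met by 25 genes, of which 2 were members, LOC102555039 and Foxn4. The mirror image, low at 35 days and present at 125 days, was met by 7 genes. With bounds of 2 and 20 the counts were 3 and 0, Foxn4 being the member, and with 10 and 10 they were 89 and 48, Asb15 then joining the members that met it. Fam111a, RGD1562420 and LOC120101677 met none of these patterns, since each had a 125-day library above 10.

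Besides the members, the genes with the pattern and the highest 35-day means were Mcpt2, LOC100361898, Ifit1, Cyp4a3, Guca2b and Kel. Mcpt2, a mast cell protease gene, was at 0 in 3 of the 125-day libraries and at 0.978 in the other, against 81.6 to 148 at 35 days. The interferon-induced gene Ifit1 was at 0 in all 4 libraries of 125 days and at 55.9 to 120.5 at 35 days. Cyp4a3, of the fatty acid hydroxylases, was at 0 in 3 libraries and 2.03 in replicate 1 of 125 days, against 30.5 to 77.4 at 35 days. Guca2b, encoding the peptide uroguanylin, averaged 2.05 ± 1.32 at 125 days and 44.0 ± 26.6 at 35 days (SD, n = 4 each). Kel, a red cell surface antigen gene, was at 0 to 2.52 at 125 days and 22.9 to 35.3 at 35 days, and the 4 erythroid markers summed to 1496 to 3671 at 125 days and 6355 to 10824 at 35 days. LOC100361898 averaged 3.91 ± 0.756 at 125 days and 82.9 ± 27.8 at 35 days (SD, n = 4 each). Mirror-image genes included Ptgdr, a prostaglandin D2 receptor gene, at 31.3 to 42.9 at 125 days and 1.09 to 3.39 at 35 days, and Sprr1a, of the small proline-rich proteins, at 12.2 to 34.2 at 125 days and 0 to 1.09 at 35 days. The other 5 of the 7 were LOC120094977, LOC120095244, LOC108351016, LOC120093367 and LOC120093388, at 125-day means of 38.9, 27.4, 25.4, 21.6 and 20.8 and at 35-day means from 0.823 to 3.39.

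Next to Asb15, Fam111a and Foxn4 on the chromosome, 1 tested gene was called and 13 were not. The 5 nearest entries on each side of each gene in the RefSeq gene order gave 30 places, of which 22 were listed in the deposited table and 14 were tested. In limma 1 of the 14 fell and 0 rose, against 8.87% lower and 8.85% higher over all genes tested. An unadjusted p below 0.05 was found for 1 fall and 2 rises (15.6% and 16.0% over all genes). By edgeR and by DESeq2 on the recovered reads the counts were also 1 lower and 0 higher. Over all genes edgeR called 9.22% lower and 8.47% higher, and DESeq2 12.3% and 11.2%. The same shares apply to the counts around each gene below. The median log2 change of the 14 was 0.02, against 0.01 for all genes tested.

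Wasl, an actin regulator gene next to Asb15, was at 2994 depth-normalized counts at 125 days and 3028 at 35 days on average (log2 change -0.01, adjusted p = 0.941 in limma). On the other side lay the respiratory chain gene Ndufa5, at 1865 at 125 days and 1985 at 35 days on average (log2 change -0.03, adjusted p = 0.934). LOC108350676, a long noncoding RNA gene that overlaps Asb15, was at 0 to 3.05 at 125 days and 2.43 to 4.36 at 35 days, too low to be tested. The strand setting of the counting is not given in the sources used here, so reads of these overlapping genes cannot be told apart. Lmod2, a muscle leiomodin gene directly beyond Asb15, was at 1.95 to 8.83 at 125 days and 3.27 to 10.96 at 35 days, also below the filter. Of the 3 tested neighbours of Asb15 none was called in limma, edgeR or DESeq2, and 0 had an unadjusted p below 0.05.

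Fam111a had the neighbour that fell: Dtx4, which encodes a ubiquitin ligase of the Notch pathway, averaged 1760 ± 191 at 125 days and 2908 ± 280.5 at 35 days (SD, n = 4 each). Limma gave a log2 change of -0.73 (SE 0.11) with an adjusted p of 0.00154. Leaving out 35-day replicate 3 made it -0.79 (SE 0.09), with an adjusted p of 2.38e-04. This change was small beside the -6.55 of Fam111a, a gene chosen on its difference between ages. Mpeg1, a macrophage gene on the same side, averaged 3464 at 125 days and 2774 at 35 days (log2 change 0.31, adjusted p = 0.152). The liver acyltransferase genes Glyat and Glyatl1 on the other side had at most 2.03 at 125 days and at most 4.52 at 35 days.

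All but 1 of the 10 places around Foxn4 were tested, 9 genes, and none was called in limma, edgeR or DESeq2, with 0 falls and 1 rise at an unadjusted p below 0.05. Their log2 changes ran from -0.16 to 0.36. The nearest, the myosin gene Myo1h, averaged 14.9 at 125 days and 16.9 at 35 days (adjusted p = 0.723), and Acacb, of fatty acid metabolism, averaged 370.2 at 125 days and 324 at 35 days (adjusted p = 0.425). Without 35-day replicate 3, 4 of the 14 neighbours of the 3 genes were called, 2 lower and 2 higher, in a fit that called 14.8% of all genes lower and 15.9% higher. Then Iqub, near Asb15, was lower at -0.40 (SE 0.14, adjusted p = 0.0499) and Dtx4 lower as above, and Mmab (0.34, SE 0.11, adjusted p = 0.0384) and Alkbh2 (0.49, SE 0.12, adjusted p = 0.0143), both near Foxn4, were higher.

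**Figure D3:**
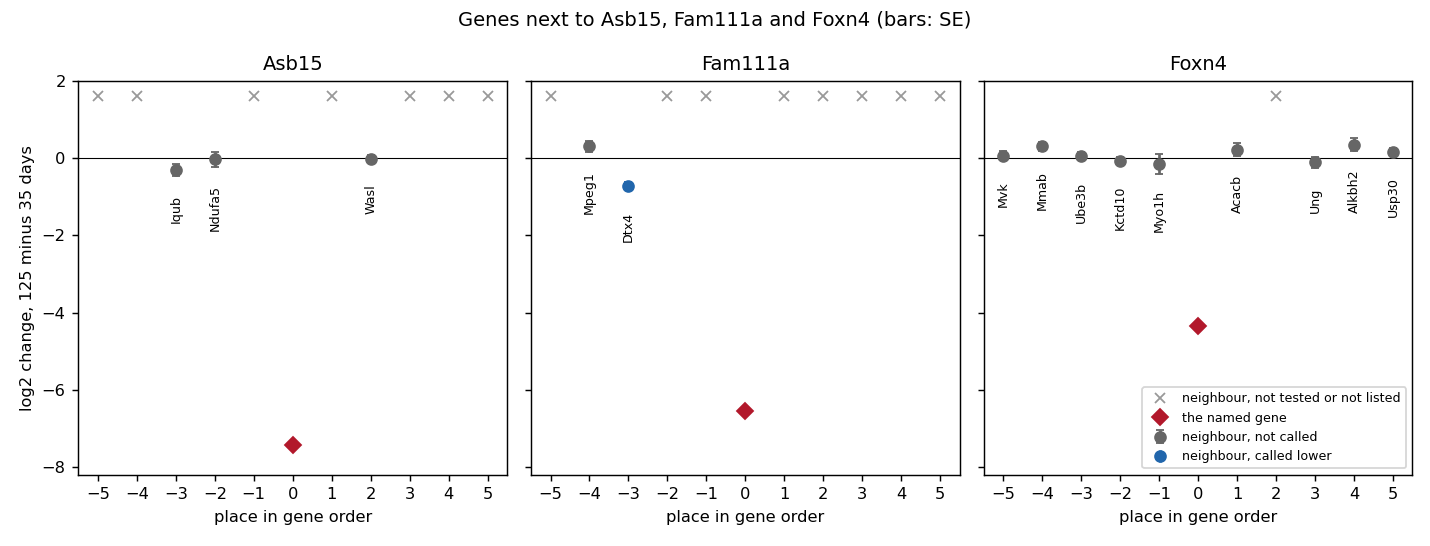
Log2 change, 125 minus 35 days (vertical, bars are SE), of the genes at places -5 to 5 in gene order around Asb15, Fam111a and Foxn4, which are drawn as red diamonds without error; crosses mark neighbours not tested or not listed. The tested neighbours lie between -0.73 and 0.36, with Dtx4 the called one, while the diamonds lie at -7.44, -6.55 and -4.35.

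Relatives and partners of Asb15 in the ubiquitin ligase were, like genes in general, mostly not called. Of 23 genes of the ASB family and the cullin-5 ligase, 16 were tested, and 1 fell and 1 rose in limma. Over all genes tested limma called 8.87% lower and 8.85% higher. The median log2 change of the list was -0.04 against 0.01 for all genes tested. Asb4, a family member with a role in vessels and placenta in mice, was at 44.7 to 58.7 at 125 days and 105 to 504.5 at 35 days, where replicate 3 was highest; limma gave -2.15 on the log2 scale (SE 0.42, adjusted p = 0.00687). Asb1 averaged 1845 ± 122 at 125 days and 1328 ± 139 at 35 days (SD, n = 4 each), a log2 change of 0.48 (SE 0.10, adjusted p = 0.00966). Asb5, a muscle-expressed relative, averaged 56.6 at 125 days and 45.2 at 35 days (0.31 on the log2 scale, SE 0.18, adjusted p = 0.268), and Asb14 averaged 144 at 125 days and 157 at 35 days (adjusted p = 0.736). Asb9, Asb10 and Asb11 were too low to be tested, with means of at most 1.86 at 125 days and 2.46 at 35 days. The ligase scaffold Cul5 had a log2 change of 0.24 (SE 0.09, adjusted p = 0.0937). DESeq2 called 2 lower and 2 higher in this list, and without 35-day replicate 3 limma called 1 lower and 3 higher, Cul5 (adjusted p = 0.0433) then among them. Over all genes those fits called 12.3% lower and 11.2% higher (DESeq2) and 14.8% lower and 15.9% higher (without 35-day replicate 3).

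Since Asb15 is known from muscle, skeletal muscle markers were set beside it. The 12 markers, all listed, summed to 368 to 458 at 125 days and 279 to 390.1 at 35 days, so their summed level was not lower at 125 days. Most of the sum came from Acta1 (mean 159 at 125 days, 70.1 at 35 days) and Mylpf (189 at 125 days, 185 at 35 days). The part of muscle tissue in the values of Asb15 was not tested. Up to 5 of the 12 were at 0 in a given library, and the myogenic factor gene Myog averaged 0 at 125 days and 0.399 at 35 days. Of the 6 tested, Acta1, encoding an actin, rose in limma (log2 change 1.19, adjusted p = 0.00527) and 0 fell, with 0 falls at an unadjusted p below 0.05 and 0 by edgeR or DESeq2. Over all genes tested limma called 8.87% lower and 8.85% higher. The shares lower were 15.6% at an unadjusted p below 0.05, 9.22% by edgeR and 12.3% by DESeq2. With 6 genes, 0 falls does not set these markers apart from genes in general. The anterior lobe markers were highest in 35-day replicate 3 (1391590), where Asb15 was also highest of all libraries (892). In 35-day replicate 1 those markers summed to 23566, below 3 of the 4 libraries of 125 days, and Asb15 was at 648. The sum hides differences between markers. In that library Lhb (4014), Fshb (2976) and Cga (9714) were above every 125-day library, whose highest values were 800, 1017 and 7552. Gh1, Prl, Tshb, Pou1f1 and Ghrhr were not. The part of anterior lobe tissue in these values was not tested.

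Genes of the replication fork, where the Fam111a protein acts, were lower at 125 days in the majority. Of 29 genes, all tested, 18 fell and 0 rose in limma, against 8.87% lower and 8.85% higher over all genes tested. The median log2 change was -0.56 against 0.01 for all genes tested. At an unadjusted p below 0.05 the counts were 25 lower and 1 higher (15.6% and 16.0% over all genes). edgeR called 18 lower and 0 higher (9.22% and 8.47% over all genes), and DESeq2 24 lower and 0 higher (12.3% and 11.2%). Without 35-day replicate 3 limma called 20 lower and 1 higher (14.8% and 15.9% over all genes). Mcm10, which activates the replicative helicase, averaged 26.6 ± 7.27 at 125 days and 124 ± 9.60 at 35 days (SD, n = 4 each), a log2 change of -2.22 (SE 0.23, adjusted p = 1.83e-04). The helicase subunit genes Mcm3 (log2 change -1.63, SE 0.12), Mcm6 (-1.34, SE 0.11) and Mcm5 (-1.23, SE 0.12) fell as well. Pcna, whose protein binds that of Fam111a, had a log2 change of -0.67 (SE 0.15, adjusted p = 0.0133). The lowest log2 change of this list was that of Mcm10, against the log2 difference of -6.55 of Fam111a, a gene chosen on its difference between ages.

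The 8 markers of dividing cells fell in 8 of 8, with a median log2 change of -2.44, and summed to 1328 to 1447 at 125 days and 6795 to 7332 at 35 days. For all marker counts in this paragraph, the limma share over all genes tested was 8.87% lower and 8.85% higher. In bulk tissue, fewer cells of a type and less RNA per cell cannot be told apart, here or for the 6 genes. The part of dividing cells in the values of the 6 genes was not tested. Erythroid markers fell too (4 of 4 lower). White blood cell markers were mixed, with 4 of 6 lower. The 6 summed to 549.6 to 773 at 125 days and 939 to 1320 at 35 days. Ptprc was not called, averaging 554 at 125 days and 570 at 35 days (log2 change -0.04, adjusted p = 0.853 in limma). Cd3e was not called either, with a log2 change of 0.58 (adjusted p = 0.432). Of the 8 anterior lobe markers 3 fell, the hormone subunit genes Lhb (log2 change -4.69, adjusted p = 6.39e-04), Fshb (-3.15, adjusted p = 0.00392) and Cga (-2.13, adjusted p = 0.0222), and the median was -2.87. The 5 intermediate lobe markers summed to 3615990 to 5345610 at 125 days and 2016420 to 3764260 at 35 days, and Pcsk2, encoding a prohormone convertase, rose (log2 change 0.79, adjusted p = 0.0193). The Pcsk2 call was lost without 125-day replicate 1 or 4 (adjusted p up to 0.064), and the Cga call without 125-day replicate 2, 3 or 4 or without 35-day replicate 2 (up to 0.0674). The part of these cell types in the values of the 6 genes was not tested either.

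Genes related to Foxn4 or known to act with it went in both directions. Of 21 listed, 17 were tested, 4 fell (Dll1, Dll4, Neurod1 and Tal1) and 3 rose, among them Atoh7, and the median log2 change was -0.41 against 0.01 for all genes tested. Limma called 8.87% of all genes tested lower and 8.85% higher. The family members Foxn2 and Foxn3 were expressed at both ages. Foxn2 averaged 939 ± 32.7 at 125 days and 1096 ± 24.0 at 35 days (SD, n = 4 each). Its log2 change of -0.22 (SE 0.08) was not called in limma (adjusted p = 0.0811), and leaving out 35-day replicate 3 gave a called -0.22 (adjusted p = 0.0298), as did DESeq2 with all libraries (adjusted p = 0.0151). Foxn3 averaged 2248 ± 293 at 125 days and 1986 ± 550.3 at 35 days (SD, n = 4 each), a log2 change of 0.22 (SE 0.20) that was not called (adjusted p = 0.505). Foxn1, the thymic and skin member, was at or near 0 at both ages.

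Among the partners, Atoh7, which encodes a factor of retinal ganglion cell formation, averaged 126 ± 56.0 at 125 days and 33.7 ± 15.7 at 35 days (SD, n = 4 each), a log2 change of 1.86 (SE 0.40, adjusted p = 0.0111 in limma). Neurod1, a proneural gene also active in endocrine cells, was at 31.3 to 44.0 at 125 days, and at 87.6, 90.9, 209 and 79.6 in 35-day replicates 1, 2, 3 and 4 (-1.46 on the log2 scale, SE 0.30, adjusted p = 0.00864). Its 35-day replicate 3 stood apart, in the library with the highest anterior lobe markers, whose part was not tested. With all libraries limma called 4 genes of this list lower. It called 1 when 125-day replicate 1, 3 or 4 was left out and 1 when 35-day replicate 2 or 4 was. The calls of Dll1, Dll4 and Tal1 (adjusted p from 0.0398 to 0.047 with all libraries) were then lost. Fewer genes were also called lower over all 17919 tested, 1589 with all libraries. The counts were 1036, 1032 and 1034 without 125-day replicates 1, 3 and 4, and 1067 and 1438 without 35-day replicates 2 and 4. The Dll1 call was also lost without 125-day replicate 2, without 35-day replicate 3 and with no filter. That of Dll4 was also lost by edgeR and without 35-day replicate 1, and that of Tal1 without 35-day replicate 1 and with no filter. Limma called 8 lower, Dll1 not among them, when 35-day replicate 3 was left out (14.8% lower over all genes). DESeq2 called 8 lower and 3 higher (12.3% and 11.2% over all genes). Of the photoreceptor markers, Crx, the photoreceptor determination gene, was at 0 in every library, and Nrl, of rod photoreceptors, averaged 0 at 125 days and 1.24 at 35 days.

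**Figure D4:**
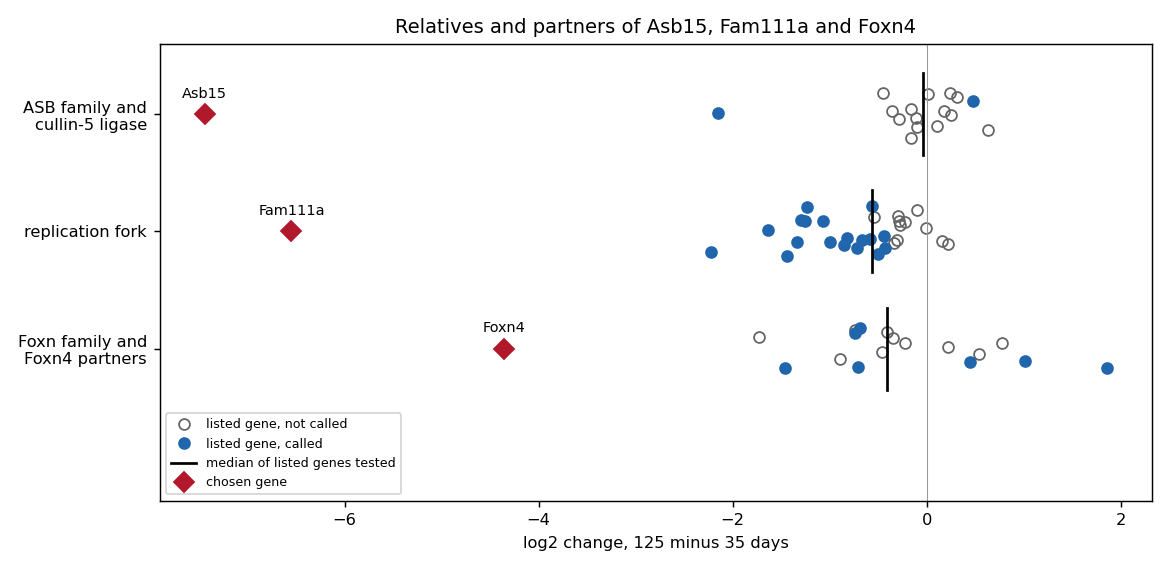
Log2 change, 125 minus 35 days (horizontal), of each tested gene in the 3 lists, filled where called in limma, with the list median as a black line and the chosen gene as a red diamond. Listed genes lie between -2.22 and 1.86, to the right of all 3 diamonds at -7.44, -6.55 and -4.35, which were chosen on their difference between ages.

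The genes most like each member in shape over the 8 libraries were found by Pearson's r of log2(value + 1) with the 17913 other genes tested. This measure rests mainly on the gap between ages and ignores the size of a change, and r was above 0.95 for 154 to 276 genes per member. For Asb15 they were Arhgap11a (r = 0.996), encoding a GTPase-activating protein of dividing cells, and the spindle checkpoint gene Bub1b (r = 0.993). Arhgap11a averaged 149 ± 21.1 at 125 days and 564 ± 5.94 at 35 days (SD, n = 4 each), a far smaller difference than that of Asb15.

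Fam111a was most like the kinetochore gene Cenpo and the retinoblastoma relative gene Rbl1 (r = 0.995 each). RGD1562420 was nearest to Nsl1, of the kinetochore (r = 0.995), and Cep55, of cell abscission (r = 0.994). LOC120101677 matched Cdkn3, a cell cycle phosphatase gene (r = 0.998), and Nkiras2, a small GTPase gene (r = 0.997). For LOC102555039 the values were lower, with Deup1, of centriole amplification in ciliated cells (r = 0.987), and the G protein gene Gna14 (r = 0.983).

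Foxn4 was most like the mismatch repair gene Msh6 (r = 0.994) and the centrosomal kinase gene Nek2 (r = 0.993). Msh6 was at 1939 to 2032 at 125 days and 2366 to 2413 at 35 days, a log2 change of -0.26 (SE 0.07, adjusted p = 0.0329 in limma), whereas Nek2 changed by -2.70 (SE 0.18, adjusted p = 1.37e-05). Msh6 was no longer called with the replicate block (adjusted p = 0.0943), nor when any single library except 35-day replicate 3 was left out (adjusted p from 0.0609 to 0.0996). The 12 most similar genes had log2 changes from -3.05 (Cep55) to -0.26 (Msh6), all nearer to 0 than those of the 6 members. That order follows largely from how the members were chosen. Between the members themselves r ran from 0.908, for LOC120101677 and Foxn4, to 0.979, for Fam111a and LOC102555039, over the same 8 libraries. All 6 were chosen on the gap between ages in these libraries, so high r between them was fixed by that choice.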

How the data were processed

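RNA of the neural lobe was sequenced from 4 libraries of 125 days and 4 of 35 days, grouped by the titles in the labels. The deposited table holds a depth-normalized signal, reads per gene that the authors scaled by library. Dividing each value by the smallest one above 0 in its library gave whole reads for 100% of values, within 0.001 reads. Upstream tools, per the submitters' processing notes, were Trimmomatic 0.39, HISAT2 2.2.1, SAMtools 1.13, featureCounts, Subread 2.0.1, DESeq2 1.34.0, with build rn7. Which annotation and strand setting were used is not given. The authors' 2 mean columns were not used.

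The main test was limma 3.58.1 in R 4.3.3, its prior variance following mean expression, on log2(value + 1), age as the only term, two-sided, Benjamini-Hochberg adjusted over 17919 genes that reached 10 in 4 or more of 8 libraries. On this scale changes of low genes are understated. The members and lists were chosen with earlier results of these data known, and the promoter motifs after the sequences had been seen. Named genes were up to 4 called genes of lowest adjusted p per list and among neighbours, close family members, the 2 most similar genes per member and up to 8 genes per on and off pattern; others named to complete short counts, or as markers or neighbours beside a member, were chosen after their values were seen. The gene order came from RefSeq, assembly GRCr8, used for names and order, and upstream sequences from the same build; the 3 provisional identifiers had no entry there. Alternatives were pseudocounts of 0.5 and 5, no filter, a mean of at least 50, TMM scaling, edgeR 4.0.16 and DESeq2 1.42.0 on the whole reads, a block for replicate number, and leaving out each library. Values of some listed genes are not reported here. The limma script was tested on simulated data. Figures were drawn with matplotlib 3.10.9.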

Additional observations from a re-analysis of the deposited data

Results flagged for a closer look

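None of the 6 members had a library that stood apart within its age by the gap between the extreme value and its nearest neighbour, divided by the range of the 4 libraries. Of 76 groups of 4 libraries checked among the members and named genes, 6 were picked out, and chance picks out about 1 in 20. Cep55 was at 22.3 depth-normalized counts in 125-day replicate 1 and at 15.6 to 16.6 in the other 125-day libraries. Mcm5 was at 273 in 125-day replicate 2 and at 323 to 328 in the others. The remaining 4 were all in 35-day replicate 3, the library with the highest anterior lobe markers, whose part in these values was not tested. Mcm3 was at 538 there and at 431 to 444 in the other 35-day libraries, Neurod1 at 209 and 79.6 to 90.9, Nsl1 at 202 and 156 to 164, and Kel at 22.9 and 33.9 to 35.3.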

How the results depend on the processing

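The log2 differences of the 6 members stayed negative under every alternative run, with lowest and highest values of -7.78 and -6.35 for Asb15, -6.89 and -6.36 for Fam111a, -5.98 and -5.16 for RGD1562420, -5.06 and -4.39 for LOC120101677, -4.94 and -3.19 for LOC102555039 and -5.08 and -2.92 for Foxn4. A mean of at least 50 removed the last 2 genes. The values nearest to 0 of all but Fam111a came with a pseudocount of 5, which compresses low values by construction. Leaving out each library gave 860 to 2846 genes called higher and 1032 to 2649 lower. The highest counts came without 35-day replicate 3, and without 125-day replicates 1, 3 and 4 the counts were 942, 916 and 860 higher and 1036, 1032 and 1034 lower. In the same fits 2 to 4 ASB and cullin-5 genes, 4 to 11 Foxn genes and partners and 1 to 4 neighbours were called. DESeq2 called 4 in the ASB list and 11 in the Foxn list. The cause of these differences was not tested. The on and off pattern counted 3 genes with bounds of 2 and 20 and 89 with 10 and 10, and its mirror image 0 and 48. With the replicate block 1290 genes were called higher and 1428 lower. Same-numbered libraries of the ages had correlations of deviations of 0.0439, 0.167, -1.9e-04 and -0.116, so the numbers were not taken to pair them, and 125-day replicate 1 for example correlated best with 35-day replicate 3. Under some alternatives the calls of Msh6, Dll1, Dll4, Tal1, Cga and Pcsk2 were lost, and those of Foxn2, Iqub, Mmab, Alkbh2 and Cul5 gained.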
